A study of Mus musculus with 17 samples.

Results

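The collagen, laminin and integrin genes number 71 of the 18193 mouse genes measured. They were chosen by symbol alone: 42 collagen alpha chains (Col, a number, a and a number), 10 laminin chains (Lama, Lamb or Lamc with a digit) and 19 integrin subunits (Itga or Itgb with digits, and Itgav). Each gene is represented by 1 probe set, the one with the highest mean level over the 17 arrays. The series asked how radial glial subtypes differ in their transcriptomes, with RNA of cells sorted by fluorescence from the cortex of hGFAP eGFP embryos. In these, enhanced green fluorescent protein is under the control of the human GFAP promoter. The 5 groups, which all carry the transgene, were GFP+ Prominin+ cells of embryonic day 18 (E18, n = 4), GFPhigh Prominin+ cells of day 14 (E14, n = 4), GFPlow Prominin+ cells of E14 (n = 3), and GFPhigh (n = 3) and GFPlow cells (n = 3) of E14 for which no Prominin gate is named, called ungated here. Prominin, the product of Prom1, is a surface protein of the apical membrane of neural progenitors. E18 cells were not split by GFP brightness, and GFP reports the activity of a transgene promoter rather than a cell type. The labels name neither the mouse strain nor the number of embryos behind a sample, and do not say that samples came from separate litters. The p-values therefore cover the spread among the arrays of a group, part or all of which can be technical.

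Levels are given as log2 of the intensity plus 16 after quantile normalisation of the 17 arrays, so that a probe set without signal sits at 4 and the median gene at 6.29. A gene was called when its limma p-value, adjusted by Benjamini-Hochberg over all 18193 genes, was under 0.05. Linear folds are given only where both group means were above the median gene.

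Of 17 radial glia markers fixed as a list, 17 were above the median gene in at least 1 group, and their summed intensity was 17140 to 20410 in E18 Prominin+ cells, 18800 to 23680 in E14 GFPhigh Prominin+ cells, 13550 to 14840 in E14 GFPlow Prominin+ cells, 41510 to 51310 in ungated GFPhigh cells and 11980 to 14720 in ungated GFPlow cells. The other cells of the cortex that make matrix were dim: 4 of 14 endothelial, 2 of 10 pericyte, 4 of 14 meningeal and fibroblast and 1 of 13 microglial markers were above the median gene in any group. The 11 Prominin+ arrays and replicate 1 of the ungated GFPhigh cells were labelled with a MessageAmp II kit, the other 5 ungated arrays with a GeneChip IVT kit. The log2 difference between the 3′ and 5′ control probe sets of Gapdh, which grows as RNA is shortened or amplified in more rounds, was -0.211 to 1.00 in E18 Prominin+ cells, 0.541 to 1.71 and 0.923 to 2.30 in E14 GFPhigh and GFPlow Prominin+ cells, -0.215 to -0.191 in ungated GFPhigh cells and -0.248 to 0.181 in ungated GFPlow cells.

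Collagens are secreted triple helices built from alpha chains. Types I, II, III, V and XI form fibrils, type IV forms the network of basement membranes, and type XVIII is a basement membrane collagen that carries heparan sulfate chains. Laminins are trimers of an alpha, a beta and a gamma chain, and integrins are dimers of an alpha and a beta subunit that bind them from the cell side. Radial glia span the wall of the developing cortex: their basal endfeet attach to the basement membrane under the meninges, and mice without laminin or integrin chains of this contact are known for breaches of that surface. Integrin alpha v pairs with beta 1, 3, 5, 6 or 8, binds RGD sequences, and as alpha v beta 8 on neural progenitors releases active TGF-beta from its latent complex.

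The 4 members above the median gene whose GFP difference was called different between the Prominin gates are shown with the 250 bases before the start that the RefSeq promoter table uses (assembly GRCm38.p6). In that comparison 7.04% of members were called, against 7.70% of all genes, so that the choice of these 4 serves description only. Itgav lies on chromosome 2 from 83722303 to 83806917 (window chr2:83724147-83724396, + strand), Itgb8 on chromosome 12 from 119162803 to 119238276 (window chr12:119238277-119238526, - strand), Col4a5 on chromosome X from 141475370 to 141689236 (window chrX:141475169-141475418, + strand) and Col11a1 on chromosome 3 from 114030479 to 114220756 (window chr3:114030290-114030539, + strand). For Itgav, Col4a5 and Col11a1 the start used lies inside the annotated span of the gene. Capitals mark 3 motifs that were searched on both strands. The GC box was searched as GGGCGG. The CCAAT box was searched as the letters of its name, and on the other strand it reads ATTGG. The TATA box was searched as TATAAA.
Itgav: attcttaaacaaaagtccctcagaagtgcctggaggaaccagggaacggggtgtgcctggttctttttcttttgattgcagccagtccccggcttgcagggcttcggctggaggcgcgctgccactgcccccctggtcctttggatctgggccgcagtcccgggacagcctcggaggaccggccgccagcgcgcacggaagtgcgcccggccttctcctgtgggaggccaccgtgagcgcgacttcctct
Itgb8: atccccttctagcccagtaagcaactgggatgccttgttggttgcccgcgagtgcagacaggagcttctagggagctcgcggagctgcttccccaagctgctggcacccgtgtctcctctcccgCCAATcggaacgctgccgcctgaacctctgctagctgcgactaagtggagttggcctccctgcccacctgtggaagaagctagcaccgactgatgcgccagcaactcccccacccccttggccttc
Col4a5: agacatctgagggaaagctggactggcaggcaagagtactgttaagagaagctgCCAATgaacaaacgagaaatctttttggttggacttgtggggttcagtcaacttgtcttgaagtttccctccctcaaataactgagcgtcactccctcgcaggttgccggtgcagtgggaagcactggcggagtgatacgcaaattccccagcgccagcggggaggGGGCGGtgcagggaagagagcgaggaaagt
Col11a1: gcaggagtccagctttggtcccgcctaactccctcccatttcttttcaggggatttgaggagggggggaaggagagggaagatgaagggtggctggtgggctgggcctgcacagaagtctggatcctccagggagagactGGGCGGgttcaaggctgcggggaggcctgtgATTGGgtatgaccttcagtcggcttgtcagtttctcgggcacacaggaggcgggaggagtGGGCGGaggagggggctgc
The Itgb8 window held 1 CCAAT box, the Col4a5 window 1 GC box and 1 CCAAT box, and the Col11a1 window 2 GC boxes and 1 CCAAT box. The Itgav window held 0 of these letter strings. Over 32851 mouse promoter windows of the same length, 32.7% held a GC box, 33.8% a CCAAT box and 12.4% a TATA box, so that these matches are common and only describe the windows. A RefSeq window was found for 52 of the 71 members. Col4a1 and Col4a2, whose starts lie 21 bases apart, and Col4a5 and Col4a6, with starts 1343 bases apart, are neighbouring type IV pairs.

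Most of the family was dim in these cells. Only 22 of the 71 genes had a mean above the median gene in at least 1 of the 5 groups (11 collagens, 5 laminins and 6 integrins), and 49 lay below it in all groups. Of the 22, 18 were called in at least 1 of the 7 comparisons, and Col4a1, Col7a1, Col16a1 and Lama5 were called in none. Of the 49, 7 were called in at least 1 comparison and 42 in none. The share of all genes called in at least 1 comparison was not counted, and single comparisons called 1.68% to 26.7% of all genes. A gene high in 1 group alone also enters the 22. These counts therefore only describe the members. The dim members included the interstitial fibril chains typical of connective tissue: Col1a2 averaged 5.38 ± 0.35 in E18 Prominin+ cells (SD, n = 4), 5.61 ± 0.28 in E14 GFPhigh Prominin+ cells (n = 4), 5.83 ± 0.16 in E14 GFPlow Prominin+ cells (n = 3), 5.61 ± 0.54 in ungated GFPhigh cells (n = 3) and 5.82 ± 0.42 in ungated GFPlow cells (n = 3). Col3a1, the chain of type III collagen, averaged 4.79 ± 0.16, 4.81 ± 0.18, 5.19 ± 0.22, 4.66 ± 0.43 and 5.44 ± 0.26 in the same order of groups. Neither was called in any comparison. Lama1, the alpha chain of the early embryonic laminin, was also below the median gene throughout, from 4.64 ± 0.40 in E18 Prominin+ cells to 6.11 ± 0.08 in ungated GFPhigh cells, and was not called.

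**Figure D1:**
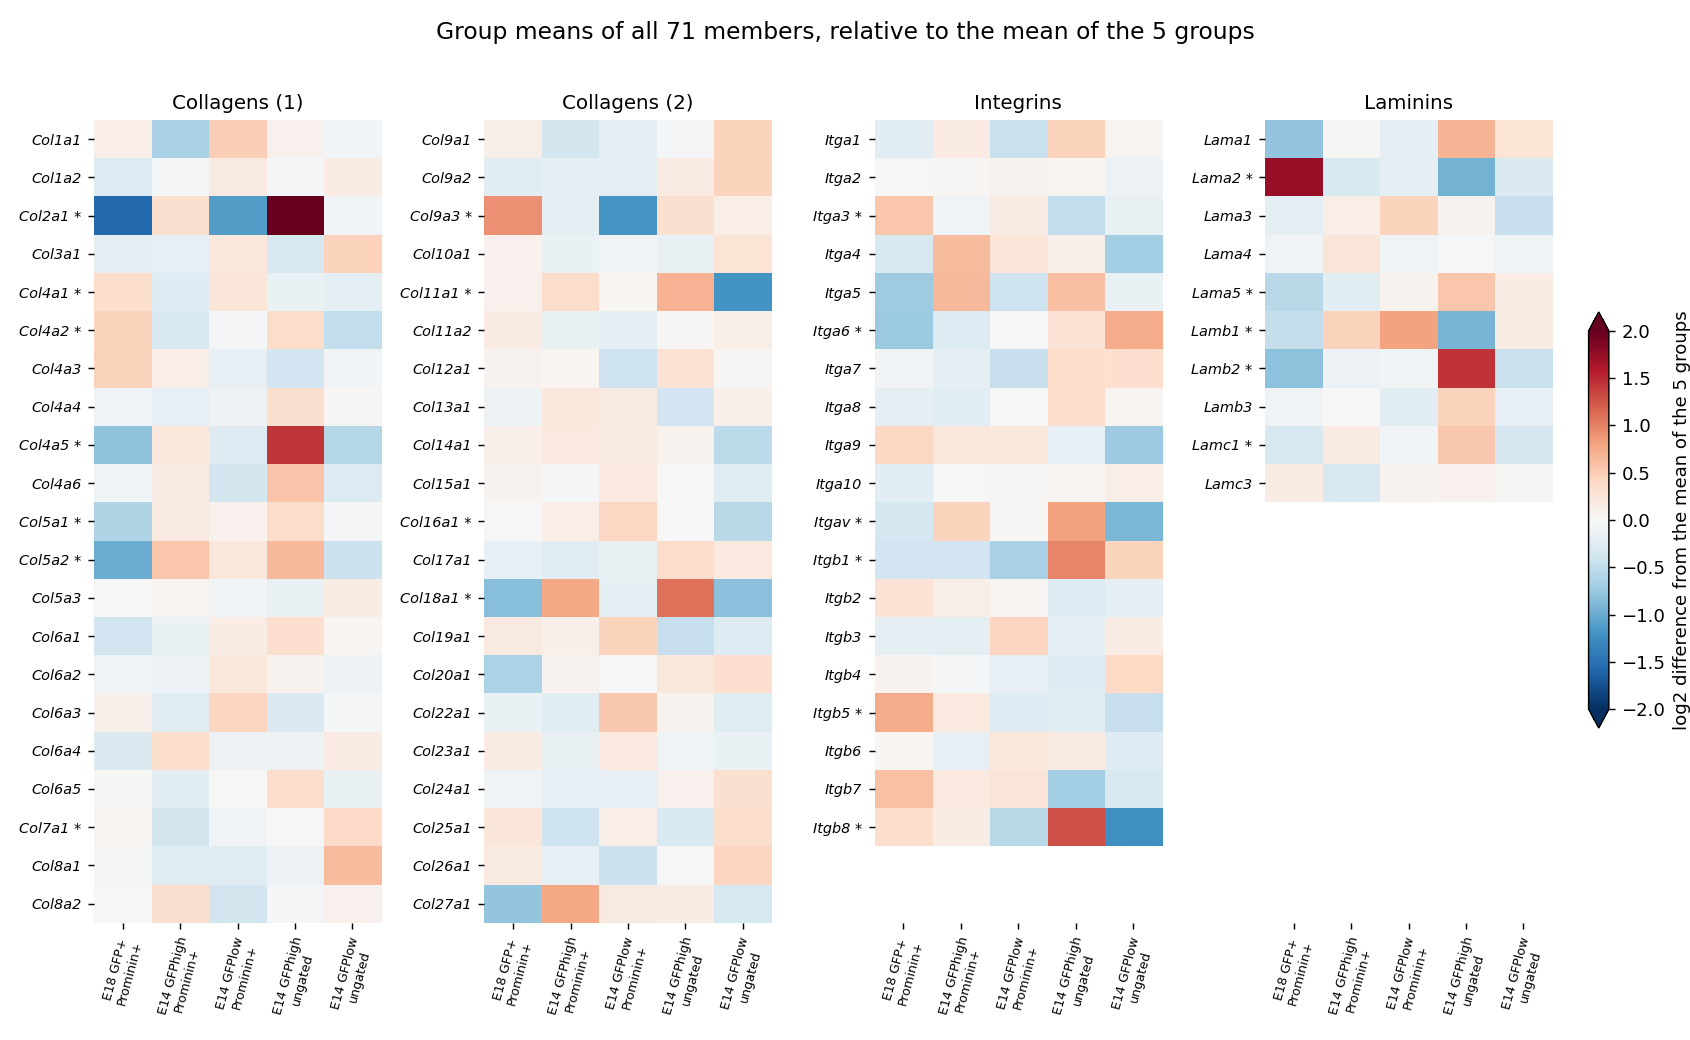
Heat map of the group means of all 71 genes (rows) in the 5 groups (columns), each as the log2 difference from the mean of the 5 group means of that gene, red above and blue below, with the colour ending at 2 in either direction. An asterisk marks the 22 genes above the median gene in at least 1 group. Some, such as Lama2 and Lamb2, are above it in 1 group alone, so that strong colour among the marked genes is partly set by this choice.

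Among ungated E14 cells, GFPhigh cells held more transcript of 9 of the 71 genes than GFPlow cells: the integrin pair Itgav and Itgb8, the laminin chains Lamb2 and Lamc1, and the collagens Col2a1, Col4a5, Col5a2, Col11a1 and Col18a1. All 9 were above the median gene in GFPhigh cells. None of the 71 was called lower by limma, and 3 were lower at an unadjusted p under 0.05. The share called was 12.7% of members, against 15.8% of all genes (7.61% higher and 8.16% lower), so that as a family the members were called no more often than genes at large. The median log2 difference was 0.18 over the members and -0.01 over all genes.

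Itgb8, the beta subunit that pairs with alpha v alone, stood at 8.95, 9.09 and 8.38 in ungated GFPhigh cells, against 6.16, 6.10 and 6.59 in ungated GFPlow cells. All GFPhigh arrays lay far above the GFPlow arrays, which were around the median gene, and the log2 difference was 2.53 ± 0.25 (SE; adjusted p = 0.00116). Its partner Itgav stood at 8.93, 8.98 and 8.73 in GFPhigh cells and 6.90, 7.18 and 7.42 in GFPlow cells. The groups did not overlap, and Itgav was 3.29-fold higher (1.72 ± 0.20, adjusted p = 0.00186). Itgav has 4 other probe sets on the array, with mean levels of 4.52 to 4.79, of which 0 were called in this comparison. Itgb1, the beta subunit shared by most laminin and collagen receptors, was bright in either group, at 8.72, 8.69 and 9.01 in GFPhigh cells and 8.46, 8.37 and 7.99 in GFPlow cells, and was not called (0.53 ± 0.20, adjusted p = 0.138). Itga6, the alpha subunit of the laminin receptors alpha 6 beta 1 and alpha 6 beta 4, was not called either, with 8.10, 8.18 and 8.32 in GFPhigh cells against 8.77, 8.70 and 8.49 in GFPlow cells (-0.46 ± 0.17, adjusted p = 0.135).

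Of the laminin chains, Lamb2 (beta 2) stood at 7.01, 7.02 and 7.45 in ungated GFPhigh cells and 5.16, 5.27 and 5.36 in ungated GFPlow cells, a difference of 1.90 ± 0.19 on the log2 scale (adjusted p = 0.00119). The GFPlow arrays were all below the median gene, and the GFPhigh arrays all above it. Lamc1, the gamma chain of nearly every laminin, was 1.83-fold higher, at 7.29, 7.54 and 7.30 in GFPhigh cells and 6.17, 6.53 and 6.81 in GFPlow cells (0.87 ± 0.22, adjusted p = 0.036). Its call ended when any of 5 of the 6 arrays was left out, with adjusted p-values of 0.0811 to 0.111: GFPhigh replicate 1, 2 or 3, and GFPlow replicate 1 or 2. Lamb1 (beta 1) pointed the other way without being called (-1.07 ± 0.36, adjusted p = 0.0958), at 6.26, 6.78 and 6.48 in GFPhigh cells and 6.77, 7.98 and 7.98 in GFPlow cells.

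Of the collagens, Col2a1, the chain of cartilage collagen that is also made by the early neuroepithelium, stood at 8.65, 8.41 and 9.33 in ungated GFPhigh cells and 6.29, 6.22 and 6.44 in ungated GFPlow cells. It was 5.57-fold higher in GFPhigh cells (2.48 ± 0.26, adjusted p = 0.00136). Col4a5, a basement membrane chain, stood at 7.53, 7.63 and 7.91 in GFPhigh cells against 5.87, 5.30 and 5.89 in GFPlow cells (2.00 ± 0.23, adjusted p = 0.00172). Here only the GFPhigh arrays exceeded the median gene, as they did for Col18a1 with 7.42, 7.32 and 7.25 in GFPhigh cells and 5.40, 5.02 and 5.82 in GFPlow cells (1.92 ± 0.24, adjusted p = 0.00227). Col11a1, which regulates fibril diameter, stood at 7.75, 7.74 and 8.12 in GFPhigh cells and 6.07, 5.45 and 6.44 in GFPlow cells (1.88 ± 0.28, adjusted p = 0.00504). Col5a2, another chain of the fibril core, was 2.11-fold higher at 7.29, 7.74 and 7.27 in GFPhigh cells and 6.06, 6.72 and 6.29 in GFPlow cells (1.08 ± 0.24, adjusted p = 0.0245). Leaving out any array other than GFPlow replicate 2 ended that call (adjusted p = 0.0578 to 0.0818). The calls of the other 7 genes held with any single array left out. Second probe sets of Col11a1, Col4a5 and Col5a2 were called in the same direction, and that of Col18a1 was not (1.21, adjusted p = 0.141).

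Of 22 collagen processing enzymes, 4 were higher and 0 lower, with 7 and 3 at an unadjusted p under 0.05: the collagen chaperone Serpinh1 (2.74 ± 0.34, adjusted p = 0.0024), the lysyl hydroxylases Plod2 (1.63 ± 0.19) and Plod1 (1.71 ± 0.41), and Crtap of the prolyl 3-hydroxylase complex (1.14 ± 0.30). The calls of Plod1 (without GFPhigh replicate 1 or 3 or GFPlow replicate 1 or 2, adjusted p = 0.0689 to 0.102) and Crtap (without any array except GFPhigh replicate 2, 0.0774 to 0.138) were lost with 1 array left out. Of 24 adaptors that couple integrins to actin, 7 were higher and 1 lower, among them Vcl (vinculin, 1.87 ± 0.20, adjusted p = 0.00153), Tns3 (tensin 3, 2.06 ± 0.28), Zyx (zyxin, 1.12 ± 0.16) and Lims1 (PINCH1, 1.06 ± 0.17). Of 22 matrix partners, 3 were higher and 0 lower (3 and 1 at an unadjusted p under 0.05): Ntn4, a laminin-related netrin (1.65 ± 0.21), Mfap2 (1.19 ± 0.21) and Sparc, a collagen binder (2.42 ± 0.46). A list of 19 genes covers laminin and collagen receptors outside the integrins and is called other receptors below. It also holds genes that are not receptors themselves, such as the glycosylation enzymes Pomt1, Pomt2 and Pomgnt1, and sarcoglycans. Of the 19, 2 were higher and 0 lower (3 and 0 at an unadjusted p under 0.05): Adgrg1 (GPR56, a receptor for type III collagen at the pial surface, 1.39 ± 0.20, adjusted p = 0.00441) and the syndecan Sdc1 (0.93 ± 0.22). The call of Sparc ended without GFPhigh replicate 2 (adjusted p = 0.0524), and that of Sdc1 without any array except GFPlow replicate 3 (0.0578 to 0.11). With the mean of all probe sets the calls of Mfap2 (adjusted p = 0.192) and Lims1 (0.0638) ended. The median differences of these lists were 0.11, 0.25, 0.18 and 0.08 in the order given.

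In the same comparison 14 of 17 radial glia markers were higher and 14 of 14 neuron markers lower, with summed neuron marker intensity of 11060 to 11860 in ungated GFPhigh cells and 43420 to 71090 in ungated GFPlow cells. The part of this difference in cell content in the results for the members was not tested. In bulk samples fewer cells of a type and less RNA per cell cannot be told apart. Endothelial markers summed to 877.4 to 955.1 in GFPhigh cells and 525.6 to 603.4 in GFPlow cells, with 1 of 14 called higher. The sums are dominated by Slc2a1, the brightest of that list here, at 9.43 in GFPhigh and 8.29 in GFPlow cells. Pecam1 (4.33 and 4.46) and Cdh5 (4.37 and 5.07) had lower means in GFPhigh cells. The median log2 difference of the 14 was 0.06, with 1 higher and 0 lower at an unadjusted p under 0.05. The calls of Col2a1, Col4a5, Col11a1, Col18a1, Lamb2, Itgav and Itgb8 were kept with the labelling kit as a block and on the 5 arrays of the GeneChip IVT kit.

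**Figure D2:**
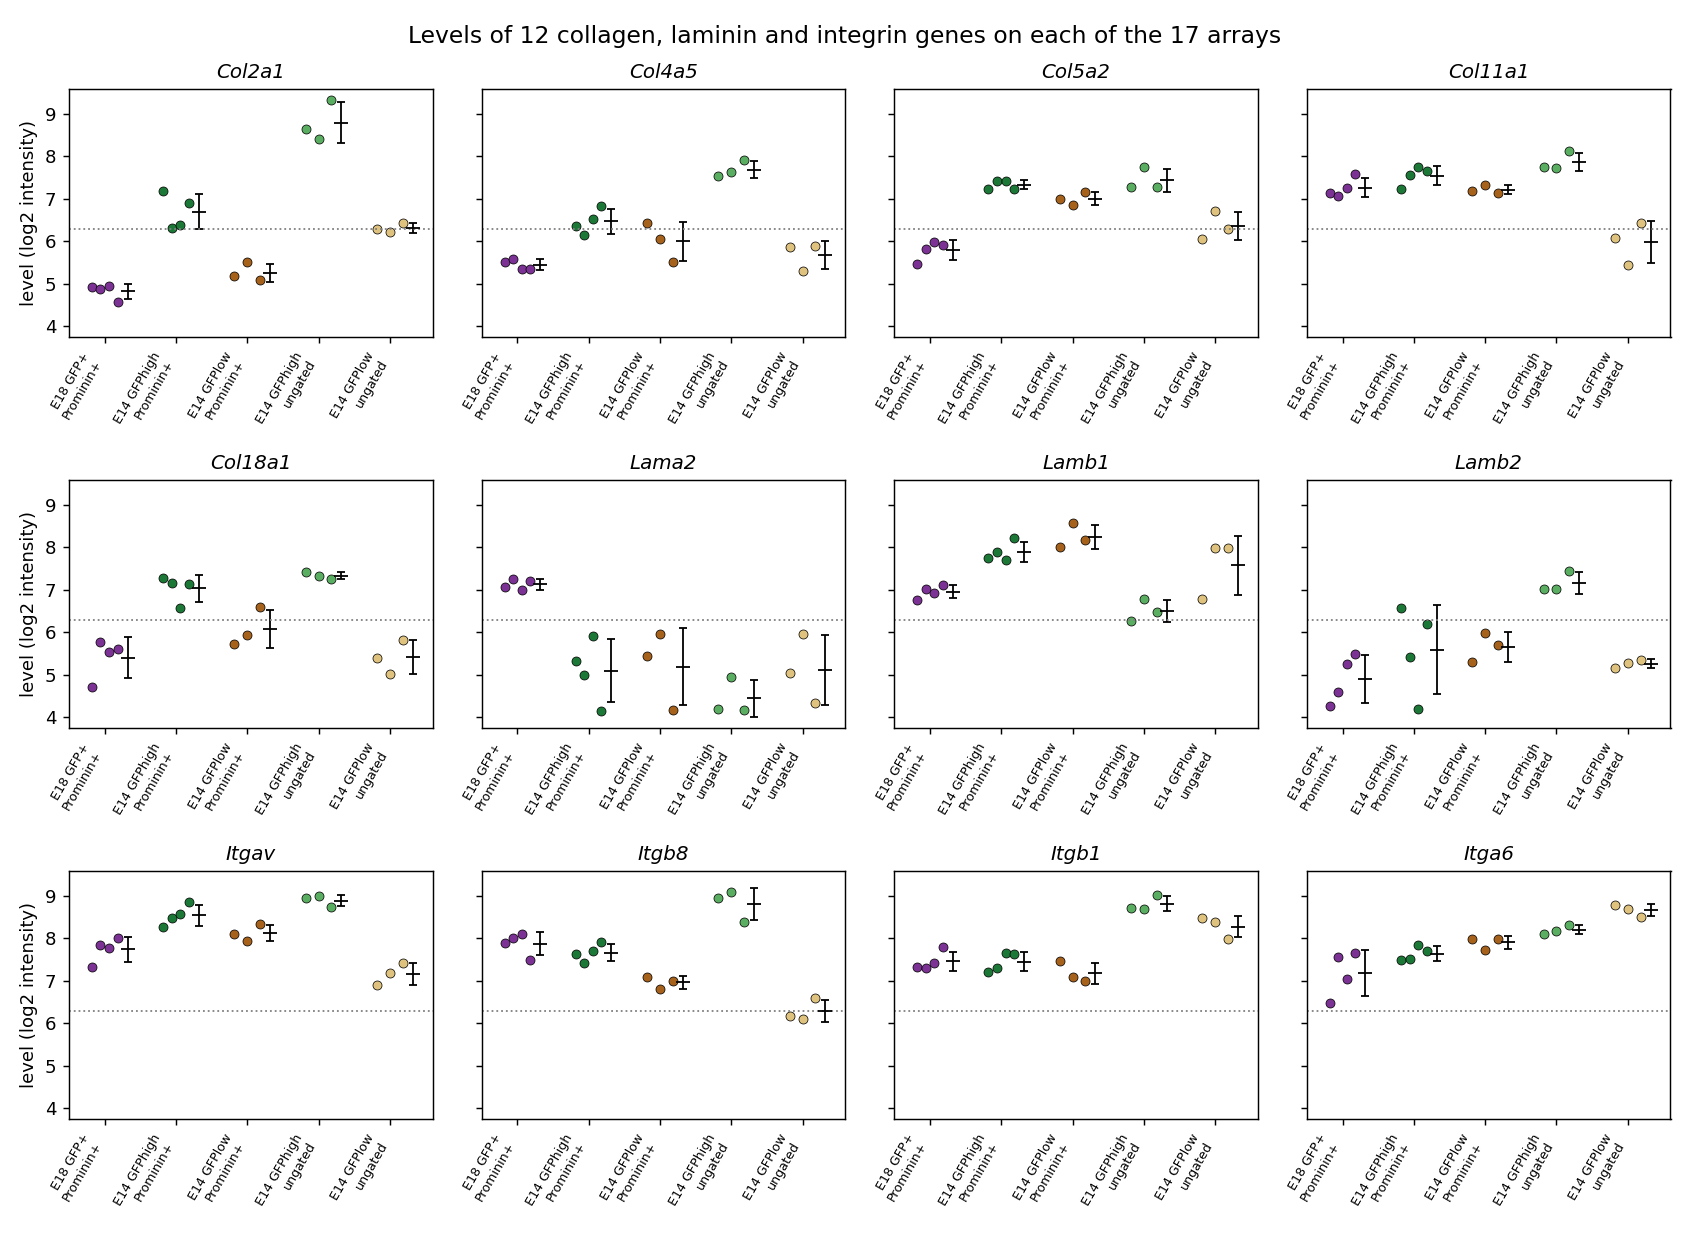
Levels (log2 of intensity plus 16, vertical axis) of 12 genes on each of the 17 arrays, by group along the horizontal axis; points are arrays, the bar beside them is the mean with its SD, and the dotted line is the median gene at 6.29. Itgav, Itgb8, Col2a1, Col4a5, Col11a1, Col18a1 and Lamb2 lie apart in ungated GFPhigh and GFPlow cells, and Lama2 exceeds the line on the 4 arrays of E18 cells only.

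Within Prominin+ cells of E14 few members differed between GFPhigh and GFPlow cells. Of the 71 genes 2 were called higher in GFPhigh cells and 1 lower, or 4.23% of members, against 1.68% of all genes (0.478% higher and 1.20% lower). Col2a1 was the single called gene above the median level, at 7.18, 6.31, 6.39 and 6.91 in GFPhigh Prominin+ cells and 5.18, 5.50 and 5.10 in GFPlow Prominin+ cells. All 4 GFPhigh arrays were above the 3 GFPlow arrays, with a log2 difference of 1.44 ± 0.22 (adjusted p = 0.0101). The 2 other calls concern dim genes. Col1a1, the main chain of bone and skin collagen, was lower, at 4.24, 4.08, 4.49 and 4.80 in GFPhigh Prominin+ cells and 5.08, 5.55 and 6.0 in GFPlow Prominin+ cells (-1.14 ± 0.23, adjusted p = 0.0325). Its call ended when GFPhigh replicate 1, 2 or 3 or GFPlow replicate 2 or 3 was left out (adjusted p = 0.0637 to 0.116). Itga5, the fibronectin receptor subunit, named here after its value was seen, was higher, at 5.55, 5.87, 5.59 and 5.49 in GFPhigh Prominin+ cells and 5.01, 4.37 and 4.29 in GFPlow Prominin+ cells (1.07 ± 0.18, adjusted p = 0.0199). Its call ended without GFPlow replicate 2 (adjusted p = 0.0706) or 3 (0.0723).

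Itgb8 in Prominin+ cells was 7.62, 7.42, 7.69 and 7.90 in GFPhigh cells and 7.09, 6.79 and 6.98 in GFPlow cells. These groups did not overlap either, but the difference of 0.70 ± 0.18 missed the threshold (adjusted p = 0.0776). Itgav was 8.25, 8.47, 8.56 and 8.84 in GFPhigh Prominin+ cells and 8.10, 7.93 and 8.32 in GFPlow Prominin+ cells (0.42 ± 0.20, adjusted p = 0.388). Col18a1 differed by 0.95 ± 0.28 (adjusted p = 0.132), Col4a5 by 0.47 ± 0.22 (adjusted p = 0.386), Col11a1 by 0.33 ± 0.17 (adjusted p = 0.456) and Lamb2 by -0.07 ± 0.48 (adjusted p = 0.973). Of the other lists, Serpinh1 (0.72 ± 0.15) and Crtap (0.84 ± 0.19) were higher among the processing enzymes and Parva, the adaptor parvin alpha, among the adaptors (0.98 ± 0.18). Serpinh1 and Crtap were lost when any of the 7 arrays was left out (adjusted p = 0.0539 to 0.153). Parva was lost without GFPhigh replicate 4 or GFPlow replicate 1 or 2 (0.0572 to 0.0814). By limma 0 of 22 matrix partners (1 higher and 5 lower at an unadjusted p under 0.05) and 0 of 19 other receptors (2 and 0) were called. Radial glia markers were higher for 5 of 17 and neuron markers lower for 6 of 14, with summed neuron marker intensity of 13570 to 17230 in GFPhigh Prominin+ cells and 26160 to 27660 in GFPlow Prominin+ cells. Cajal-Retzius markers were lower for 6 of 9, with a median log2 difference of -1.37 and sums of 785.9 to 1036 in GFPhigh Prominin+ cells and 4051 to 5615 in GFPlow Prominin+ cells. The part of these markers in the results was not tested.

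Whether the GFP difference itself changed with the gate was tested as a difference of differences over all 17 arrays. For 5 of the 71 genes (7.04%, against 7.70% of all genes) the signed GFPhigh minus GFPlow difference was called lower in Prominin+ than in ungated cells. For 0 it was called higher by limma, with 0 at an unadjusted p under 0.05. A lower or higher estimate here refers to the sign and not to the size of the difference. Over all genes, 3.83% were called lower and 3.87% higher. The estimate was -1.83 ± 0.30 for Itgb8 (adjusted p = 0.00115), -1.55 ± 0.31 for Col11a1 (adjusted p = 0.00516), -1.54 ± 0.32 for Col4a5 (adjusted p = 0.00682) and -1.30 ± 0.28 for Itgav (adjusted p = 0.00799). These 4 calls were kept with the labelling kit as a block, which here only sets ungated GFPhigh replicate 1 aside, since no other group mixes the kits. A kit effect on the GFP difference therefore cannot be told apart from a gate effect. With the mean of all probe sets the call of Itgav ended (-0.40, adjusted p = 0.403) and the other 3 of the 4 were kept. Col1a1 was the fifth (-1.28 ± 0.35, adjusted p = 0.0343), a call lost when any of 9 of the 13 arrays was left out (adjusted p = 0.0502 to 0.0981): GFPhigh Prominin+ replicate 1, 2 or 3, GFPlow Prominin+ replicate 2 or 3, ungated GFPhigh replicate 1 or 3, or ungated GFPlow replicate 2 or 3. For Col2a1, which was called in either gate, the difference of -1.04 ± 0.34 was not called (adjusted p = 0.0807), nor was that of Lamb2 (-1.96 ± 0.62, adjusted p = 0.064). Serpinh1 (-2.02 ± 0.34), Vcl (-1.50 ± 0.23), Tns3 (-1.65 ± 0.31), Ntn4 (-1.64 ± 0.34) and Sparc (-2.26 ± 0.48) of the other lists had a smaller GFP difference with the gate as well, and so had 12 of 17 radial glia markers. The adaptor Parvb had a positive estimate (1.24 ± 0.34, adjusted p = 0.0312), but its GFP difference was smaller in size with the gate too. Its means in GFPhigh and GFPlow cells were 4.76 and 6.05 ungated, and 5.16 and 5.21 in Prominin+ cells. The Parvb call was lost without GFPhigh Prominin+ replicate 1 or 4, GFPlow Prominin+ replicate 3, ungated GFPhigh replicate 1 or 2 or ungated GFPlow replicate 2 (adjusted p = 0.0512 to 0.0874). Of 14 neuron markers 10 were called higher and 0 lower by limma (13 and 0 at an unadjusted p under 0.05), with a median of 1.54, and 4 of 9 Cajal-Retzius markers were called lower. The median GFPhigh minus GFPlow difference of the neuron markers was -2.41 ungated and -0.76 in Prominin+ cells, and thus smaller in size with the gate. That of the Cajal-Retzius markers was 0.02 and -1.37. The part of these markers in the results was not tested.

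**Figure D3:**
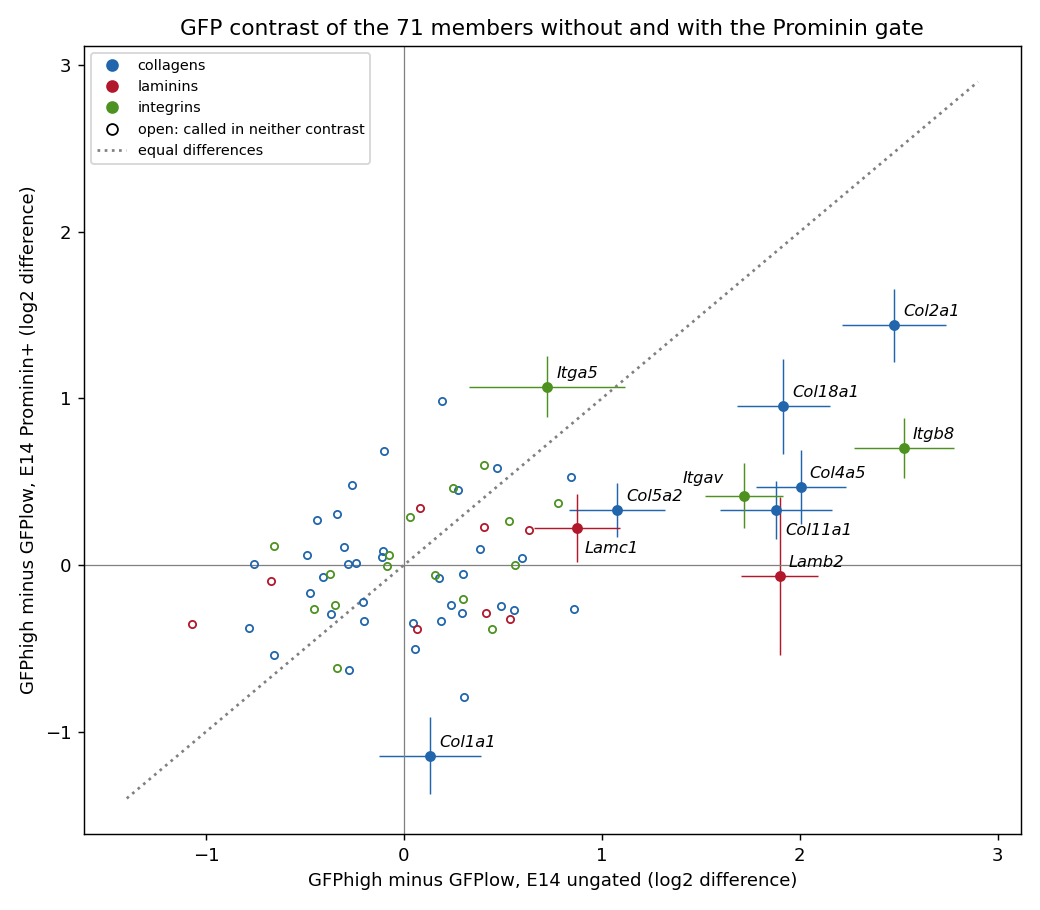
GFPhigh minus GFPlow log2 difference of the 71 genes in ungated E14 cells (horizontal axis) and in Prominin+ E14 cells (vertical axis); filled points, with SE bars, were called in at least 1 of the 2 contrasts, and the dotted line marks equal differences. Itgb8, Col4a5, Itgav, Col11a1 and Lamb2 lie far below the line, with differences of 1.72 to 2.53 ungated and of -0.07 to 0.70 in Prominin+ cells.

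These 2 GFP contrasts share no array. Their log2 differences correlated across the 71 genes with r = 0.496 (Spearman's rho 0.39), across the 22 genes above the median level with r = 0.664 (rho 0.668), and across all genes with r = 0.554 (rho 0.433). The 22 genes were chosen by group means of these same arrays, and some passed through 1 group alone, so that their r is not a separate test. Genes are not independent replicates, and the arrays of each contrast share their labelling and normalisation.

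Within a GFP class the gate could be compared directly, with the reservation that the labelling kit differs. Prom1 did not differ by limma between Prominin+ and ungated GFPhigh cells (0.14 ± 0.15, adjusted p = 0.585), and was higher in Prominin+ GFPlow cells (1.56 ± 0.16, adjusted p = 2.37e-05). The 18S control signal was 2110 to 6147 in Prominin+ and 113.9 to 657.7 in ungated GFPhigh cells. In GFPlow cells it was 2273 to 2894 and 185.4 to 1396. The part of these in the results was not tested. Among GFPhigh cells, Prominin+ cells had 1 of the 71 genes higher and 6 lower than ungated cells, or 9.86% of members, against 20.7% of all genes (11.8% higher and 8.98% lower). Itgb1 stood at 7.21, 7.30, 7.65 and 7.62 in GFPhigh Prominin+ cells and 8.72, 8.69 and 9.01 in ungated GFPhigh cells, and was 2.57-fold lower (-1.36 ± 0.19, adjusted p = 9.12e-05). Itgb8 was 2.22-fold lower (-1.15 ± 0.20, adjusted p = 0.000758). Col2a1 was 4.28-fold lower (-2.10 ± 0.23, adjusted p = 1.63e-05) and Col4a5 2.33-fold lower (-1.22 ± 0.22, adjusted p = 0.000926). Lamb2 was lower too (-1.57 ± 0.42, adjusted p = 0.0132). Its GFPhigh Prominin+ arrays ranged widely, at 6.57, 5.40, 4.20 and 6.19, and its call ended without ungated GFPhigh replicate 3 (adjusted p = 0.0598). Lamb1, a laminin chain of the other direction, was 2.61-fold higher, at 7.75, 7.90, 7.69 and 8.21 in GFPhigh Prominin+ cells and 6.26, 6.78 and 6.48 in ungated GFPhigh cells (1.38 ± 0.26, adjusted p = 0.00108). The dim Col1a1 was lower (-0.73 ± 0.24, adjusted p = 0.04), a call that ended without GFPhigh Prominin+ replicate 1, 2 or 3 or ungated GFPhigh replicate 1 or 3 (adjusted p = 0.0604 to 0.143).

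Only ungated GFPhigh replicate 1 carries the kit of the Prominin+ arrays. With the kit as a block, and on the MessageAmp arrays alone, with that lone ungated array assumed to vary like the other groups, Col2a1, Itgb1, Itgb8 and Lamb1 were kept, and Col4a5 (adjusted p = 0.0565 and 0.0562), Lamb2 (0.179 and 0.22) and Col1a1 (0.122 and 0.101) were not. The Gapdh 3′ to 5′ difference also separated these groups, and with it as a covariate, an alternative chosen after seeing the data, Lamb1 (adjusted p = 0.0634), Col4a5 (0.067), Lamb2 (0.49) and Col1a1 (0.134) lost their calls. Of the 5 other probe sets of Itgb1, 1 was called lower, and of the 3 others of Lamb1, 1 was called higher. Prominin+ cells had 12 of 17 radial glia markers lower, 7 of 14 neuron markers higher and 0 of 14 endothelial markers called by limma (1 higher at an unadjusted p under 0.05), and the part of these in the results was not tested. Of the matrix partners, processing enzymes, adaptors and other receptors, 0, 3, 2 and 1 were higher and 2, 3, 2 and 4 lower, in this order. Of those checked, only the ones kept under every alternative are named. Adgrg1 (-1.48 ± 0.19), the collagen receptor Ddr1 (-1.83 ± 0.30) and Serpinh1 (-1.27 ± 0.23) were lower. Mia3, which loads collagen into carriers at the endoplasmic reticulum, was higher (0.83 ± 0.14).

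Among GFPlow cells, Prominin+ cells had 5 genes higher and 5 lower, or 14.1% of members, against 19.2% of all genes (10.8% higher and 8.46% lower). Here all 3 ungated arrays carry the GeneChip IVT kit, so that gate and kit cannot be told apart. Itgav was 1.93-fold higher, at 8.10, 7.93 and 8.32 in GFPlow Prominin+ cells and 6.90, 7.18 and 7.42 in ungated GFPlow cells (0.95 ± 0.21, adjusted p = 0.00403). With the mean of all probe sets of the gene in place of the brightest, this difference turned to -0.15 (adjusted p = 0.612). Col11a1 was higher at 7.19, 7.33 and 7.13 in Prominin+ cells and 6.07, 5.45 and 6.44 in ungated cells (1.23 ± 0.23, adjusted p = 0.00148). Itgb8 (0.68 ± 0.22, adjusted p = 0.0387) and Col5a2 (1.57-fold, 0.65 ± 0.20, adjusted p = 0.0314) were higher too, as was the dim Itga9. On the other side Itgb1 was 2.14-fold lower, at 7.45, 7.09 and 6.98 in Prominin+ cells and 8.46, 8.37 and 7.99 in ungated cells (-1.10 ± 0.20, adjusted p = 0.00128). Col2a1 was lower as well (-1.06 ± 0.25, adjusted p = 0.0074), and so was Itga6, 1.68-fold (-0.75 ± 0.24, adjusted p = 0.039), whose second probe set was not (0.15, adjusted p = 0.729). Col9a3, below the median gene in both of these groups, and the dim Itga7 made up the rest. Itga7 and Itga9 are named after their values were seen.

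Leaving out a single array ended 6 of these 10 calls. That of Itgb8 was lost without GFPlow Prominin+ replicate 1 or 3 or ungated GFPlow replicate 1 or 2 (adjusted p = 0.0938 to 0.13), that of Col5a2 without Prominin+ replicate 1 or 3 or ungated replicate 1 or 3 (0.067 to 0.14), and that of Itga6 without any array except ungated replicate 3 (0.069 to 0.119). Those of Col9a3 (replicates 1 and 3 of either group, 0.0636 to 0.131), Itga7 (replicates 1 and 2 of either group, 0.0571 to 0.0869) and Itga9 (replicates 2 and 3 of either group, 0.104 to 0.126) were also lost. With the kit as a block, whose effect then rests on ungated GFPhigh replicate 1, all 10 calls ended, Itgb1 at an adjusted p of 0.179 and Col11a1 at 0.0918. The dim Col17a1, named after its value was seen, was called instead (-1.82 ± 0.38, adjusted p = 0.0275). Without the block, 1, 5, 5 and 1 of the matrix partners, processing enzymes, adaptors and other receptors were higher in GFPlow Prominin+ cells, and 0, 0, 1 and 3 lower. Of 9 Cajal-Retzius neuron markers 8 were higher in GFPlow Prominin+ cells, with summed intensity of 4051 to 5615 against 497.1 to 788.8 in ungated GFPlow cells, and 9 of 14 neuron markers were lower. The part of either in the results was not tested.

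Between the ages, in Prominin+ cells, E18 cells had 5 of the 71 genes higher and 10 lower than E14 GFPhigh cells, or 21.1% of members, against 26.7% of all genes (10.2% higher and 16.5% lower). Against E14 GFPlow cells they had 4 higher and 3 lower, or 9.86% of members, against 17.4% of all genes (6.02% higher and 11.4% lower). The 2 comparisons share the 4 arrays of E18 cells, and E18 cells were not split by GFP. Leaving out quantile normalisation moved the median difference of all genes by 0.10 against GFPhigh cells, and median centring moved it by -0.17 against GFPhigh and -0.13 against GFPlow cells. Without quantile normalisation the counts were 10 higher and 8 lower against GFPhigh cells and 6 higher and 2 lower against GFPlow cells.

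Lama2, the alpha chain of the laminin found around vessels and muscle fibres, rose in either comparison. It stood at 7.06, 7.26, 7.00 and 7.20 in E18 cells, at 5.32, 4.99, 5.91 and 4.15 in E14 GFPhigh Prominin+ cells and at 5.43, 5.96 and 4.18 in E14 GFPlow Prominin+ cells. All E18 arrays exceeded the median gene and no E14 array did. The log2 difference was 2.04 ± 0.39 against GFPhigh cells (adjusted p = 0.00178) and 1.94 ± 0.42 against GFPlow cells (adjusted p = 0.0072). The call against GFPlow cells ended with a pseudocount of 1 (adjusted p = 0.0902). Lamb1, a beta chain, fell: it was 6.75, 7.03, 6.92 and 7.10 in E18 cells, against 7.75, 7.90, 7.69 and 8.21 in GFPhigh cells and 8.00, 8.56 and 8.17 in GFPlow cells. It was 1.91-fold lower than in GFPhigh cells (-0.94 ± 0.17, adjusted p = 0.00126) and 2.45-fold lower than in GFPlow cells (-1.29 ± 0.18, adjusted p = 0.000554), with 0 of 3 other probe sets called in either. With the mean of all its probe sets both calls of Lamb1 ended, at -0.32 (adjusted p = 0.134) and -0.35 (adjusted p = 0.161). Lamc1 was not called (-0.49 ± 0.19, adjusted p = 0.0785, and -0.26 ± 0.20, adjusted p = 0.434), and neither were Lamb2 and Lama5.

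Of the 11 collagens above the median gene in a group, 5 fell at E18 against GFPhigh cells, namely Col2a1, Col4a5, Col5a1, Col5a2 and Col18a1, and of these Col5a2 alone was called against GFPlow cells as well. Col5a2 stood at 5.46, 5.82, 6.0 and 5.91 in E18 cells, against 7.24, 7.42, 7.43 and 7.23 in GFPhigh cells and 7.01, 6.84 and 7.16 in GFPlow cells, and fell in either comparison (-1.53 ± 0.15, adjusted p = 1.58e-05, and -1.21 ± 0.16, adjusted p = 0.000411). The E18 arrays were below the median gene and the E14 arrays above it. Col2a1 stood at 4.92, 4.88, 4.94 and 4.56 in E18 cells, 1.87 ± 0.20 below GFPhigh cells on the log2 scale (adjusted p = 3.43e-05). Against GFPlow cells its difference was -0.44 ± 0.22 (adjusted p = 0.205). Col18a1, at 4.71, 5.76, 5.53 and 5.61 in E18 cells and 7.27, 7.16, 6.56 and 7.13 in GFPhigh cells, differed by -1.63 ± 0.26 (adjusted p = 0.000599). Its second probe set fell too (-1.07, adjusted p = 0.00356). Col4a5, at 5.52, 5.59, 5.34 and 5.34 in E18 cells and 6.36, 6.16, 6.53 and 6.84 in GFPhigh cells, differed by -1.02 ± 0.20 (adjusted p = 0.00249), and Col5a1 by -0.78 ± 0.21 (adjusted p = 0.0132). Col27a1 and Col20a1, below the median gene in all groups and named after their values were seen, were the other 2 collagens called lower. The call of Col20a1 was lost without E18 replicate 2, 4 or 5 or GFPhigh replicate 1, 2 or 4 (adjusted p = 0.0894 to 0.121).

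Col4a2 and Col9a3 were the collagens above the median gene that were called higher. Col4a2 was higher in E18 cells, at 6.18, 6.51, 6.41 and 6.61, than in GFPhigh cells, at 5.35, 5.29, 6.04 and 6.05 (0.74 ± 0.21, adjusted p = 0.0176). The call was lost without E18 replicate 5 (adjusted p = 0.0519), GFPhigh replicate 1 (0.0514) or GFPhigh replicate 2 (0.0528). Its neighbour Col4a1, the partner chain of the classical type IV trimer, stood at 6.86, 6.98, 7.25 and 7.34 in E18 cells and 6.39, 6.69, 6.51 and 6.39 in GFPhigh cells. The E18 arrays all lay above the GFPhigh arrays, but the difference was not called (1.53-fold, 0.61 ± 0.23, adjusted p = 0.0727). Against GFPlow cells neither Col4a1 nor Col4a2 was called. In GFPlow cells Col4a1 stood at 6.50, 6.78 and 7.72, the last above every E18 array, and Col4a2 at 5.67, 6.03 and 6.14. Col9a3, a chain of fibril-associated type IX collagen, stood at 7.32, 7.36, 6.75 and 6.35 in E18 cells and 4.92, 5.10 and 4.54 in GFPlow cells (2.09 ± 0.36, adjusted p = 0.00215). Against GFPhigh cells, at 6.89, 5.40, 5.26 and 5.80, the groups overlapped, and the call (1.11 ± 0.34, adjusted p = 0.0273) ended without E18 replicate 2 or 3 or GFPhigh replicate 2, 3 or 4 (adjusted p = 0.0567 to 0.0816). The dim Col1a1 was called higher than in GFPhigh cells (0.78 ± 0.21, adjusted p = 0.0158) and not than in GFPlow cells (-0.36 ± 0.23, adjusted p = 0.331).

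Among the integrins, Itgav was 1.74-fold lower in E18 cells, at 7.33, 7.84, 7.76 and 8.01, than in GFPhigh cells, at 8.25, 8.47, 8.56 and 8.84 (-0.80 ± 0.18, adjusted p = 0.00568). It was not called against GFPlow cells (-0.38 ± 0.20, adjusted p = 0.216). The call against GFPhigh cells ended with the mean of all its probe sets (adjusted p = 0.752). Itgb8 was 1.88-fold higher in E18 cells, at 7.88, 8.00, 8.11 and 7.50, than in GFPlow cells (0.91 ± 0.18, adjusted p = 0.0044). It was not called against GFPhigh cells (0.21 ± 0.17, adjusted p = 0.409). Itgb5, another partner of alpha v, stood at 6.90, 6.53, 6.83 and 7.20 in E18 cells and 5.63, 5.71 and 6.27 in GFPlow cells (1.00 ± 0.24, adjusted p = 0.0136), with 2 of 3 other probe sets called likewise. That call ended without GFPlow replicate 1 (adjusted p = 0.0553) or 2 (0.0551). Itga3, an alpha subunit for laminins, was higher than in GFPhigh cells with overlapping arrays (0.62 ± 0.21, adjusted p = 0.045). The call was lost without E18 replicate 2, 3 or 5 or GFPhigh replicate 2 or 3 (adjusted p = 0.0743 to 0.124). The dim Itga5 fell against GFPhigh cells (-1.37 ± 0.17, adjusted p = 9.31e-05). The dim Itgb3, named after its value was seen, fell against GFPlow cells (-0.64, adjusted p = 0.0259). Its call was lost without E18 replicate 2, 4 or 5 or GFPlow replicate 2 or 3 (adjusted p = 0.0528 to 0.107). Itgb1 did not pass the test in either comparison (0.01 ± 0.17 and 0.28 ± 0.19).

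The probe sets of Itga6 disagree on age. The brighter one, used throughout, gave -0.46 ± 0.23 against GFPhigh cells (adjusted p = 0.177) and -0.73 ± 0.25 against GFPlow cells (adjusted p = 0.0656). The second, with a mean level of 7.43, gave -1.90 (adjusted p = 1.65e-05) and -2.10 (adjusted p = 4.05e-05).

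**Figure D4:**
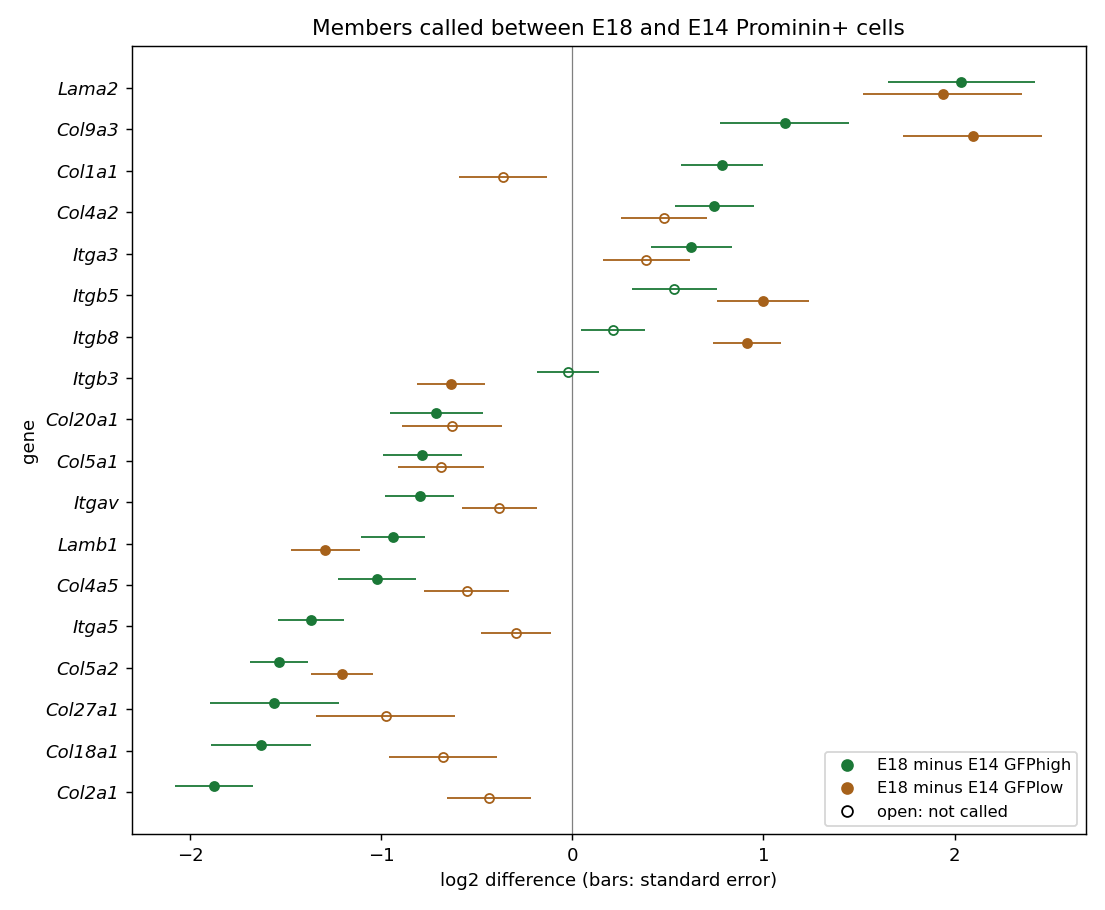
E18 minus E14 log2 differences, with SE bars, of the 18 genes called in at least 1 of the 2 age comparisons, against E14 GFPhigh Prominin+ cells (green) and E14 GFPlow Prominin+ cells (brown); open points were not called. Lama2 and Col9a3 were called higher in either comparison, Col5a2 and Lamb1 lower in either. Other genes also lie on the same side of 0 in either comparison, without being called in both.

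Of 24 integrin adaptors 12 were lower and 0 higher than in GFPhigh cells (14 and 1 at an unadjusted p under 0.05; median difference -0.45, against -0.07 over all genes), led by Tns1 (tensin 1, -1.73 ± 0.21, adjusted p = 7.58e-05), Parva (-1.14 ± 0.16), Bcar1 (p130Cas, -1.29 ± 0.19) and Vcl (-0.69 ± 0.13). Against GFPlow cells 5 were lower and 0 higher (9 and 2 at an unadjusted p under 0.05), among them Bcar1 (-0.99 ± 0.21) and Tns1 (-0.95 ± 0.23). The call of Tns1 was lost without GFPlow replicate 3 (adjusted p = 0.0546) and with the mean of all probe sets (-0.06, adjusted p = 0.861). Of 22 collagen processing enzymes 5 were lower and 0 higher than in GFPhigh cells (5 and 0 at an unadjusted p under 0.05), with Serpinh1 at -1.13 ± 0.14 (adjusted p = 7.86e-05), Crtap at -1.08 ± 0.17, the disulfide isomerase P4hb at -0.82 ± 0.16 and the cyclophilin Ppib at -0.89 ± 0.20. Against GFPlow cells 2 were lower and 1 higher. Of 22 matrix partners 2 were higher and 4 lower than in GFPhigh cells. The microfibril protein Fbn2 rose in either comparison (2.68 ± 0.17, adjusted p = 9.02e-07, and 2.10 ± 0.18, adjusted p = 2.81e-05), as did Fbln2 (1.12 ± 0.20 and 1.02 ± 0.21). Fbln1 (-1.65 ± 0.25 and -1.69 ± 0.27) and Ntn4 (-1.23 ± 0.23 and -1.22 ± 0.24) fell. With the mean of all probe sets the calls of Fbln2 (adjusted p = 0.111 and 0.0901) and Fbln1 (0.0977 and 0.102) ended in either comparison. Of 19 other receptors 4 were higher and 3 lower than in GFPhigh cells, with Adgrg1 (-1.28 ± 0.18, adjusted p = 0.000258) and Sdc1 (-1.17 ± 0.23) among the lower ones.

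The summed endothelial and pericyte markers overlapped between the ages, while the meningeal and microglial sums of E18 cells lay apart from those of GFPhigh cells and overlapped with those of GFPlow cells. Endothelial markers summed to 725.6 to 1159 in E18 cells, 793.2 to 1059 in GFPhigh and 727.1 to 853.9 in GFPlow Prominin+ cells, with 2 of 14 higher and 1 lower than in GFPhigh cells. Within that list Pecam1 (4.30 in E18 cells, 4.32 in GFPhigh and 4.34 in GFPlow cells) and Cdh5 (4.74, 4.87 and 5.21 in the same order) were far below the median gene. Cldn5 (5.86, 4.84 and 5.16) and Ramp2 (6.36, 5.68 and 6.26) had a higher mean at E18 than in GFPhigh cells, and Slc2a1 (8.40, 9.33 and 9.02) a lower one. The median difference of the 14 was -0.03 against GFPhigh and -0.02 against GFPlow cells. The thyroid hormone transporter Slco1c1 of the same list rose by 3.21 ± 0.29 (adjusted p = 7.87e-06) and 3.40 ± 0.31 (adjusted p = 3.27e-05), more than Lama2 did. The part of endothelial cells in the results was not tested. Pericyte markers summed to 292.5 to 471.5 in E18 cells, 409.3 to 489.1 in GFPhigh and 307.6 to 440.8 in GFPlow cells, and meningeal and fibroblast markers to 1130 to 1584, 1667 to 2666 and 1509 to 1688 in the same order. The meningeal sums at E18 lay below those of GFPhigh cells, although Pdgfra of that list, a receptor also found on oligodendrocyte precursors, rose by 3.36 ± 0.33 (adjusted p = 1.6e-05) and 3.02 ± 0.36 (adjusted p = 0.000175). These sums are dominated by Igfbp2, the brightest of the list, at 9.87 in E18, 10.60 in GFPhigh and 10.24 in GFPlow cells. The median log2 difference of the meningeal list was 0.06 against GFPhigh and 0.10 against GFPlow cells. Microglial markers summed to 273.8 to 558.3 in E18 cells, 167.8 to 226.3 in GFPhigh and 203.5 to 308 in GFPlow cells, with 0 of 13 called by limma in either comparison (4 higher and 1 lower, and 2 higher and 0 lower, at an unadjusted p under 0.05).

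Other features of the samples differed clearly with age. Prom1 itself was lower at E18 (-2.09 ± 0.13 against GFPhigh cells, adjusted p = 8.62e-07). Of 17 radial glia markers 10 were lower and 5 higher than in GFPhigh cells, and 8 lower and 6 higher than in GFPlow cells. Of 14 neuron markers 9 were higher and 1 lower than in GFPhigh cells, and 4 higher and 4 lower than in GFPlow cells. Summed neuron marker intensity was 25230 to 28490 in E18 cells, 13570 to 17230 in GFPhigh and 26160 to 27660 in GFPlow cells. Basal progenitor markers, 6 and 5 of 8 of which were lower, summed to 3443 to 4565 in E18 cells, 10810 to 13140 in GFPhigh and 8178 to 9310 in GFPlow cells. Of 9 Cajal-Retzius markers 4 were higher and 2 lower than in GFPhigh cells, and 1 higher and 6 lower than in GFPlow cells. The 18S control signal was 568.9 to 909.6 on E18 arrays, against 2110 to 6147 on E14 GFPhigh and 2273 to 2894 on E14 GFPlow Prominin+ arrays. The part of these in the results for the members was not tested. The Gapdh 3′ to 5′ difference was lower in E18 cells than in most E14 Prominin+ arrays. With it as a covariate, chosen after seeing the data, the calls against GFPhigh cells of Lama2, Col2a1, Col4a5, Col5a2, Col18a1 and Lamb1 were kept. Those of Itgav (adjusted p = 0.132), Col5a1 (0.124), Col9a3 (0.394), Itga3 (0.221) and the dim Col20a1 (0.279) ended. Against GFPlow cells those of Lama2 (0.192), Col9a3 (0.104), Itgb8 (0.0576), Itgb5 (0.0634) and Itgb3 (0.275) ended as well.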

How the data were processed

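Total RNA of sorted cells, isolated with an RNeasy kit with DNase digestion on the column per the labels' protocols, was measured on 17 expression arrays. The deposited values are intensities, 1 linear signal per probe set already summarised by the authors (0.0397 to 59926). The number of arrays limits the precision. The software behind the deposited signals is not given in the sources used here. Of 45101 probe sets, 64 controls were left out, 34945 had 1 gene symbol in the platform annotation, 932 had several and 9160 had none listed, and only the first kind was used. Values were set to log2(intensity + 16), quantile-normalised, and reduced to the brightest probe set per gene. 0 pairs of arrays were identical. Groups came from the age, GFP and Prominin terms of the labels. Tests used lmFit and eBayes of limma 3.58.1 in R 4.3.3, two-sided, with Benjamini-Hochberg adjustment over 18193 genes. The GFP and age contrasts of Prominin+ cells were fitted on 11 arrays, the ungated GFP contrast on 6, and those between gates on 17. The fits were tested on simulated data. Figures were drawn with matplotlib 3.10.9 in Python 3.11.15.

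Genes described were the called members whose higher group mean exceeded the median gene (up to 15 risen and 15 fallen per comparison by size). Described whatever their result were Col1a1, Col1a2, Col3a1, Col4a1, Col4a2, Lama1, Lama5, Lamb1, Lamc1, Itga6, Itgb1, Itgav and Itgb8. From each other list up to 4 called genes per comparison were taken by lowest p for checking, and not all of them are named. For the gate in GFPhigh cells only those kept under every alternative are named, and for the gate in GFPlow cells only counts are given. The members and lists were chosen with earlier results of these data known. Marker lists of choroid plexus and hem (1 of 10 above the median gene), erythroid cells (2 of 7) and basal progenitors (8 of 8) were also counted. Alternatives were the pseudocount, normalisation, probe set rule, dim filter, fit, labelling kit, replicate block and each array left out, and, added after seeing the data, the Gapdh covariate. Same-numbered samples did not pair (correlations of deviations -0.144 to 0.04).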

Additional observations from a re-analysis of the deposited data

Results flagged for a closer look

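On 2 genes a single array stood apart from the rest of its group of 4. Col1a2 was 6.02 in replicate 2 of the E14 GFPhigh Prominin+ cells, against 5.45 to 5.50 on the 3 others, a gap of 0.924 of the group's range. Lama5, the alpha chain of the main adult epithelial and vascular laminin, was 4.43 in replicate 4 of the E18 cells, against 5.66 to 5.86 on the 3 others, a gap of 0.861 of the range. In all, 60 groups of 4 arrays were examined, over 30 genes, and chance alone marks about 1 in 20 such groups.

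The difference of the GFPhigh minus GFPlow contrast between Prominin+ and ungated E14 cells was called for 5 genes: -1.83 for Itgb8, -1.55 for Col11a1, -1.54 for Col4a5, -1.30 for Itgav and -1.28 for Col1a1 on the log2 scale. For Itgb8, Col11a1, Col4a5 and Itgav the contrast was positive in either gate and larger in ungated cells. With the mean of all probe sets the call of Itgav ended (-0.40, adjusted p = 0.403). For the dim Col1a1 it was -1.14 in Prominin+ cells and 0.13 in ungated cells.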

How the results depend on the processing

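Of the 56 called pairs of a gene and a comparison, 37 were kept with any single array left out and 20 under every alternative tried: 7 of ungated GFPhigh against GFPlow cells, 6 of E18 against E14 GFPhigh cells, Col5a2 of E18 against E14 GFPlow cells, 3 of the gate in GFPhigh cells and 3 of the difference between gates. Signs turned for Itgav of the gate in GFPlow cells (-0.1481) and for the syndecan Sdc3 of E18 against GFPhigh cells (-0.1014), each with the mean of all probe sets, and the cause was not tested. With 1 array left out, the count of called members was 1 to 3 for GFPhigh against GFPlow in Prominin+ cells (3 with all arrays), 7 to 10 ungated (9), 12 to 17 for E18 against GFPhigh cells (15), 6 to 8 against GFPlow cells (7), 5 to 7 for the gate in GFPhigh cells (7), 5 to 11 in GFPlow cells (10) and 4 to 6 for the difference between gates (5). For Prominin+ GFPhigh against GFPlow the count was 1 with a pseudocount of 1, 1 with the mean of all probe sets and 0 with the replicate block. With the replicate number as a block the counts were 0, 8, 11, 5, 6, 7 and 4 in the order above, although the numbers pair no samples, and among all genes 8 were called in place of 305 for the first. That count of all genes was 74 and 554 with pseudocounts of 1 and 64, 109 with median centring, 143 with the mean of all probe sets, 510 without the dimmest genes, 498 with a trended robust fit and 174 with the Gapdh covariate. The count of all genes for ungated GFPhigh against GFPlow (2869) was 1867 with the replicate block and 1841 with the kit block or on the GeneChip IVT arrays. For E18 against GFPhigh cells (4850) it was 3083 with the replicate block, and against GFPlow cells (3166) 1128 with that block and 1387 with the Gapdh covariate. For the gate in GFPhigh cells (3774) it was 1688 with the kit block, 1892 on the MessageAmp arrays and 1667 with the Gapdh covariate, and in GFPlow cells (3496) 373 with the kit block, 829 with the Gapdh covariate and 1518 with the compared groups alone. The count of called members for E18 against GFPlow cells was 2 with the Gapdh covariate. For the gate in GFPlow cells it was 6 with a pseudocount of 64, 5 with the compared groups alone in the fit, 1 with the kit as a block and 3 with the Gapdh covariate. The causes of these changes in count were not tested, and the smaller fits also hold fewer arrays. Median centring gave 2 higher and 5 lower for the gate in GFPlow cells, against 5 and 5, and 2 higher and 0 lower for Prominin+ GFPhigh against GFPlow, against 2 and 1. Without quantile normalisation the gate in GFPhigh cells gave 2 higher and 6 lower, against 1 and 6.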
